A study of Mus musculus with 10 samples.

Results

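Solute carrier genes encode membrane proteins that move sugars, amino acids, nucleotides, vitamins, metals and inorganic ions across cell and organelle membranes. Of the 12806 named genes in the count table, 186 carried a name of the form Slc, family number, a, member number. The 159 of these with a mean of at least 1 CPM (the gene's count scaled by the library's total over named genes) over the 10 libraries are described here, and the other 27 fell below that level. The members just above it were Slc1a1 at 1.16 CPM, Slc45a3 at 1.19 and Slc38a6 at 1.22, and the genes just below it were Slc36a1 at 0.967, Slc9a9 at 0.950 and Slc26a1 at 0.910.

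The libraries came from 10 mouse cell lines of esophageal squamous cell carcinoma, a tumour of the squamous lining of the esophagus, on a mixed strain background. All 10 lines, controls included, carried the genotype Trp53R172H/-, that is, 1 mutant allele of the tumour suppressor gene Trp53. The shCtrl lines additionally expressed a control short hairpin RNA, and the shTrp53 lines a hairpin against Trp53, which lowers the mutant transcript. There was 1 shCtrl primary line and 1 shTrp53 primary line. Lung metastases gave the remaining 8 lines, taken at week 8, expanded in culture and then sorted by their YFP fluorescence, with 5 shCtrl lines (376, 377, 378, 382 and 383) and 3 shTrp53 lines (384, 386 and 387). The labels do not say which mouse each line came from, whether a line is 1 clone or at what age animals were used. The p-values here therefore rest on the spread from line to line, which may be partly technical. Where metastatic and primary lines are compared, this is mainly the spread among metastatic lines.

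Library totals ran from 11057049 to 18431216 counts. Trp53 stood between 73.7 and 131 CPM in the 6 shCtrl lines and between 5.16 and 7.36 CPM in the 4 shTrp53 lines. Of 10 squamous markers 9 were in the table, from Krt13 at 0.174 to 6.54 CPM and Krt15 at 1.65 to 129 CPM up to Krt14 at 3816 to 9512 CPM. Their summed level was 8881 and 11212 CPM in the primary lines, 7228 to 10810 CPM in the shCtrl metastatic lines and 4921 to 7190 CPM in the shTrp53 metastatic lines, so the metastatic groups did not overlap. Single squamous markers differed in direction, with Krt5 at 514 to 1509 CPM in the shCtrl and 161 to 388 CPM in the shTrp53 metastatic lines, and Cdh1 at 28.0 to 44.5 CPM and 88.1 to 106 CPM. Of markers of other cells, Cd68 was the 1 of 6 immune markers found, at 75.0 to 85.7 CPM in the primary lines, 96.2 to 133 in the shCtrl metastatic lines and 128 to 143 in the shTrp53 metastatic lines. Summed levels of the 3 of 7 fibroblast markers found stayed at or under 10.9 CPM, and Aqp5, the 1 of 7 lung epithelial markers found, ran from 1.22 to 43.9 CPM. The part of these markers in the results was not tested. In bulk RNA of this kind, fewer cells of a type and less RNA per cell cannot be told apart.

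Cells take up glucose through facilitative carriers, mainly of the SLC2 family, and export the lactate of glycolysis through monocarboxylate carriers of the SLC16 family. Amino acid exchangers at the plasma membrane trade glutamine, leucine and cystine, SLC30 proteins move zinc out of the cytosol and SLC39 proteins move it in, and SLC25 proteins link the cytosol to the mitochondrial matrix. Squamous carcinoma cells are known for high use of glucose and for cystine import that supports glutathione synthesis. The 159 genes together took 1.02 to 1.21% of all counts, with 1.06 to 1.17% in the shCtrl metastatic lines, 1.02 to 1.05% in the shTrp53 metastatic lines, and 1.10 and 1.21% in the primary lines. Measured per kilobase of exon, the median member stood at 5.12 CPM per kb. The highest were the ADP/ATP carrier Slc25a5 at 1146 CPM per kb and Slc3a2, the shared heavy chain of amino acid exchangers, at 541 CPM per kb. Next came the ADP/ATP carrier Slc25a4 at 305, the mitochondrial phosphate carrier Slc25a3 at 253 and Slc25a39, a mitochondrial glutathione carrier, at 245 CPM per kb.

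The knockdown was read by comparing the 3 shTrp53 with the 5 shCtrl metastatic lines, which asks which genes follow the level of mutant Trp53 in lung metastases. Of the 157 solute carrier genes tested, 12 rose and 18 fell in the shTrp53 lines at an adjusted p under 0.05 in edgeR's quasi-likelihood test. That was 19.1% of them, against 21.7% of all 12120 genes tested (10.9% higher and 10.8% lower). Their median log2 fold change was 0.02, against -0.01 over all genes, and single members ran from -3.36 to 2.81. The values of the 2 groups of lines did not overlap in 42 members (26.8%), against 29.4% of all genes. Both shares lie near those of all genes, so the count as a whole does not set the solute carrier genes apart.

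Of the 30 genes called, 13 stayed under 0.05 when each metastatic line was left out in turn. The count fell to 14 without shTrp53 line 384 and to 18 without shTrp53 line 386, and it was 31 without shCtrl line 383. With a term that sets lines 376 to 378 apart from the other metastatic lines (the line term in what follows), the shTrp53 lines are compared with shCtrl lines 382 and 383 only, and 13 members were called, 10 of them among the 30. Of all genes tested, 7.79% were called with the line term. What the line numbers stand for is not given in the labels.

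**Figure D1:**
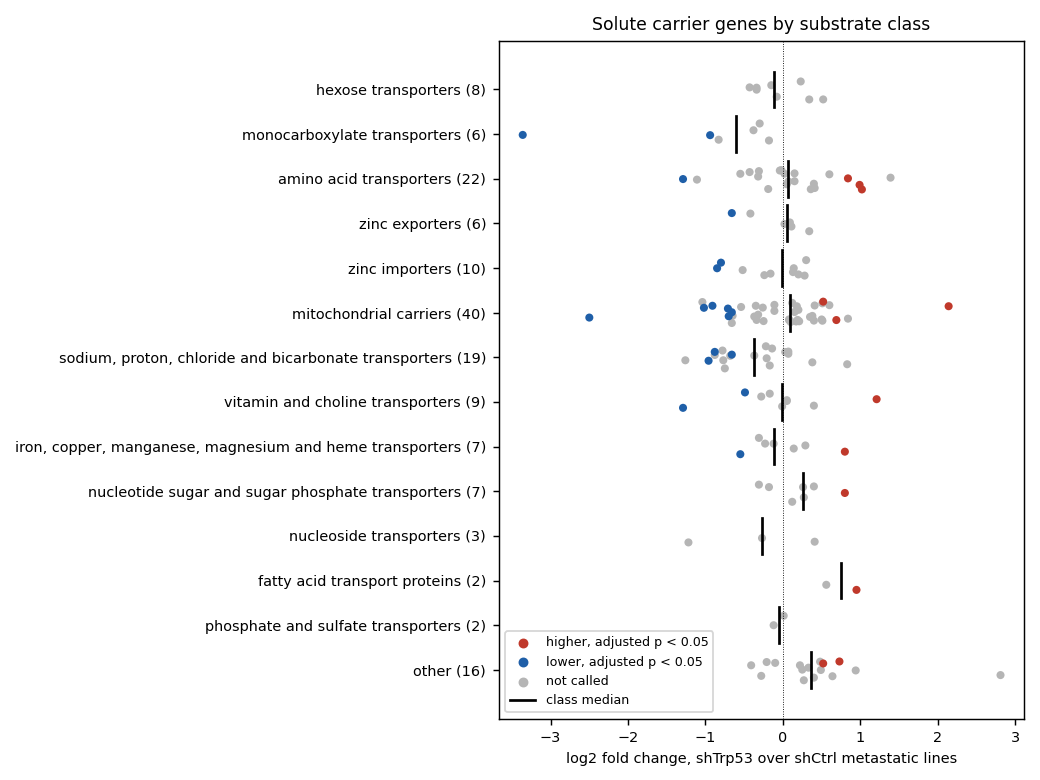
Log2 fold change of each tested solute carrier gene, shTrp53 over shCtrl metastatic lines (x axis), by substrate class (rows, with the number tested in brackets), with called genes coloured and a black bar at each class median. No hexose carrier was called, the monocarboxylate carriers all lie below 0 with a median of -0.61, and most of the called mitochondrial carriers lie below 0. Over all genes tested, 21.7% were called.

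No hexose carrier passed the test, where 21.7% of all genes tested did. The 8 measured members had a median log2 fold change of -0.12 and ranged from -0.43 to 0.52. Slc2a1, the main glucose importer of squamous cells, stood at 80.0, 74.4, 65.4, 84.5 and 85.5 CPM in shCtrl lines 376, 377, 378, 382 and 383 and at 62.0, 56.4 and 66.5 CPM in shTrp53 lines 384, 386 and 387. The groups overlapped through shCtrl line 378 and shTrp53 line 387. The log2 fold change of Slc2a1 was -0.34 (SE 0.13, adjusted p = 0.0900, edgeR quasi-likelihood test). Slc50a1, a hexose carrier of internal membranes and the most abundant of the class at 98.5 CPM per kb against 22.1 for Slc2a1, averaged 110 ± 17.3 CPM (SD, n = 5) and 86.6 ± 15.8 CPM (SD, n = 3), with a log2 fold change of -0.34 (SE 0.16, adjusted p = 0.154, edgeR). Slc2a3, a high-affinity glucose carrier, averaged 0.680 CPM and was below the level set for members.

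Of the 6 monocarboxylate carriers, 2 fell and none rose, and all 6 had a negative log2 fold change (median -0.61). Among all genes tested, 10.8% fell. Slc16a1 encodes MCT1, which carries lactate, pyruvate and ketone bodies with protons. It was at 168, 145, 122, 117 and 111 CPM in the 5 shCtrl metastatic lines, in the order 376 to 383, and at 70.3, 68.5 and 67.7 CPM in shTrp53 lines 384, 386 and 387. Every shTrp53 metastatic line lay below every shCtrl metastatic line, and the shTrp53 lines were close to one another. Slc16a1 fell: its mean was 132 ± 23.6 CPM (SD, n = 5) against 68.8 ± 1.38 CPM (SD, n = 3), a log2 fold change of -0.94 (SE 0.15, adjusted p = 0.00383, edgeR quasi-likelihood test). It kept its call without any single line (highest adjusted p = 0.0204, edgeR) and with the term for lines 376 to 378 (log2 fold change -0.72, adjusted p = 0.0175, edgeR).

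Slc16a14, a monocarboxylate carrier family member expressed at a low level here, was at 3.92, 3.13, 4.54, 4.13 and 3.63 CPM in the shCtrl lines and at 0.287, 0 and 0.777 CPM in the shTrp53 lines. The groups were far apart relative to their spread, with no overlap. Its log2 fold change was -3.36 (SE 0.63, adjusted p = 0.00676, edgeR), and the call held without any single line and with the line term. Slc16a13, the second most abundant of the class per kilobase, averaged 11.0 ± 5.78 CPM (SD, n = 5) and 6.16 ± 2.81 CPM (SD, n = 3), and did not pass (log2 fold change -0.83, SE 0.41, adjusted p = 0.169, edgeR). The lactate exporter Slc16a3 was not analysed here.

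The promoter of Slc16a1 is shown because this gene is the abundant lactate carrier that fell. The 250 bases before the RefSeq start of the gene (GRCm38.p6, chr3:104638414-104638663, plus strand) hold 1 copy of the E-box CACGTG, in capitals, which begins 200 bases before the start.
Slc16a1: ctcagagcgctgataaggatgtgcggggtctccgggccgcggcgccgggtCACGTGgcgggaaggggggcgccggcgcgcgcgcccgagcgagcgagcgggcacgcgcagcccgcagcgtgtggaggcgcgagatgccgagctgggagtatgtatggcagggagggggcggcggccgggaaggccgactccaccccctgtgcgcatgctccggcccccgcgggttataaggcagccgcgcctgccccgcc
The E-box, which reads the same on both strands, was present in this window in 19 of the 120 members with a listed start (15.8%) and in 10.0% of the 10023 genes of the table with one. The match describes the letters of the window only.

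Genes that make lactate and the partners of its carriers were read beside them. Of 20 genes of glycolysis and lactate handling outside the solute carriers, 9 fell and 0 rose, and their median log2 fold change was -0.44, where 10.8% of all genes tested fell. The list was chosen with earlier results of these data known, so its count is a description and no separate support. Only 4 of the 20 were called with the line term, all lower, and the median was then -0.26. The lactate dehydrogenase subunit Ldhb fell from 10.3 CPM to 1.16 CPM on average (log2 fold change -3.11, SE 0.39, adjusted p = 0.00120, edgeR), and the glycolytic enzyme Tpi1 fell from 694 CPM to 284 CPM on average (log2 fold change -1.29, SE 0.19, adjusted p = 0.00242, edgeR). Pfkl, the liver-type phosphofructokinase, fell from 98.9 CPM to 44.1 CPM on average (log2 fold change -1.16, SE 0.26, adjusted p = 0.0136, edgeR). Of the 2 accessory proteins that bring monocarboxylate carriers to the cell surface, Bsg did not pass (log2 fold change -0.27, adjusted p = 0.130, edgeR). The other, Emb, fell from 60.0 CPM to 41.2 CPM on average (log2 fold change -0.54, SE 0.15, adjusted p = 0.0292, edgeR). Emb lost its call without line 378, 384, 386 or 387 (highest adjusted p = 0.111, edgeR). With the line term Ldhb and Tpi1 kept their calls (adjusted p = 0.00631 for both), and Pfkl (adjusted p = 0.0743) and Emb (adjusted p = 0.147) did not (edgeR).

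Among 22 amino acid carriers, 3 rose and 1 fell (18.2%, against 21.7% of all genes tested), with a median log2 fold change of 0.06. The 1 that fell was Slc7a11, the light chain of the cystine/glutamate exchanger xCT, which supplies cysteine for glutathione. Slc7a11 was at 155, 154, 231, 236 and 138 CPM in shCtrl lines 376, 377, 378, 382 and 383, and at 86.9, 39.2 and 97.8 CPM in shTrp53 lines 384, 386 and 387. All shTrp53 metastatic lines lay below all shCtrl metastatic lines, with line 386 the lowest. Its mean was 183 ± 46.7 CPM (SD, n = 5) against 74.6 ± 31.2 CPM (SD, n = 3), with a log2 fold change of -1.29 (SE 0.30, adjusted p = 0.0155, edgeR). Leaving out any single line kept the call (highest adjusted p = 0.0418), and the term for lines 376 to 378 ended it (log2 fold change -1.32, adjusted p = 0.0800, edgeR). In the primary pair Slc7a11 went the other way, 126 CPM in the shCtrl line and 187 CPM in the shTrp53 line (log2 ratio 0.56, 95% counting interval 0.48 to 0.65). Both primary values lie inside the range of the metastatic lines, 39.2 to 236 CPM, and Slc7a11 was not called between metastatic and primary lines.

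The promoter of Slc7a11 is shown because 2 copies of the amino acid response motif stand in it and the genes of that response were measured. The window (RefSeq start, GRCm38.p6, chr3:50443614-50443863, minus strand) holds the letters TGATGNAA, in capitals, 66 and 47 bases before the start. The copy nearer the start lies on the opposite strand.
Slc7a11: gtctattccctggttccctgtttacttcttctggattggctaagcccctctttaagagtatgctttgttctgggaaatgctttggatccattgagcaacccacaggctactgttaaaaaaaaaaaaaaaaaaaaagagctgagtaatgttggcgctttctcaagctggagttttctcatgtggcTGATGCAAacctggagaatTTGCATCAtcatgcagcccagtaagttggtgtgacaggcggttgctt
This motif was found in either direction in 3 of the 120 members with a listed start (2.50%; Slc7a11, Slc7a7 and Slc50a1) and in 2.44% of the 10023 table genes. Windows with 2 or more copies occurred in 4 of those genes (0.0399%), and Slc7a11 was the 1 member among them.

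The amino acid carriers that rose are 1 cell-surface exchanger and 2 proteins of the lysosome. Slc7a6, which exchanges cationic for neutral amino acids together with Slc3a2, was at 44.1, 51.2, 49.8, 47.1 and 55.4 CPM in the shCtrl lines and at 73.6, 140 and 80.5 CPM in the shTrp53 lines. The groups did not overlap, and line 386 was the highest. Its log2 fold change was 0.99 (SE 0.20, adjusted p = 0.00816, edgeR). Slc38a7, which carries glutamine out of lysosomes, was at 13.1, 14.7, 16.4, 18.0 and 21.0 CPM against 28.3, 32.2 and 28.9 CPM. Each shTrp53 metastatic line exceeded each shCtrl metastatic line, and the log2 fold change was 0.84 (SE 0.17, adjusted p = 0.00913, edgeR).

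Slc38a9, the lysosomal arginine carrier that feeds mTORC1 signalling, was at 5.67, 2.87, 6.69, 5.05 and 6.45 CPM against 12.0, 11.7 and 8.88 CPM. These groups also stayed apart, with a log2 fold change of 1.02 (SE 0.27, adjusted p = 0.0234, edgeR), and the call was lost without line 384 or 386 (highest adjusted p = 0.0856, edgeR). With the line term Slc7a6 stayed called (adjusted p = 0.0478, edgeR), and Slc38a7 (adjusted p = 0.0561) and Slc38a9 (adjusted p = 0.124) did not.

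The abundant glutamine and leucine carriers did not pass the test. Slc3a2 was at 1009, 1328, 1491, 2051 and 2205 CPM in shCtrl lines 376 to 383 and at 2037, 2135 and 2227 CPM in the shTrp53 lines, so shCtrl lines 382 and 383 reached the shTrp53 level and 376 was the lowest. Its log2 fold change was 0.40 (SE 0.23, adjusted p = 0.218, edgeR). Slc7a5, the leucine exchanger LAT1, had a log2 fold change of 0.07 (SE 0.25, adjusted p = 0.874, edgeR), and the glutamine carrier Slc1a5 of -0.32 (SE 0.22, adjusted p = 0.307, edgeR). Slc38a2, a sodium-coupled carrier of small neutral amino acids, had a log2 fold change of 0.05 (SE 0.13, adjusted p = 0.831, edgeR). The signs for Slc7a5 and Slc38a2 turned when single lines were left out.

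The list of 20 genes of amino acid use and the amino acid stress response was also chosen with earlier results of these data known. Of these, 3 fell and none rose (15.0%, against 21.7% of all genes tested). They were the aspartate aminotransferase Got1 (116 to 51.8 CPM, log2 fold change -1.16, adjusted p = 0.0116, edgeR), and the serine hydroxymethyltransferases Shmt1 (90.5 to 47.7 CPM, log2 fold change -0.92, adjusted p = 0.0258, edgeR) and Shmt2 (421 to 254 CPM, log2 fold change -0.73, adjusted p = 0.0122, edgeR). Without single lines Got1 stayed called (highest adjusted p = 0.0474), Shmt1 lost its call without 377, 378, 384, 386 or 387 (highest adjusted p = 0.0991) and Shmt2 without 386 (adjusted p = 0.0543, edgeR). Shmt2 stayed called with the line term (adjusted p = 0.0440), and Got1 (adjusted p = 0.0803) and Shmt1 (adjusted p = 0.197) did not (edgeR).

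Of 16 zinc carriers measured, 3 fell and none rose (1 of 6 exporters and 2 of 10 importers), and the median log2 fold change was 0.05. That was 18.8% called, against 21.7% of all genes tested. Slc30a1, the zinc exporter of the plasma membrane, was at 21.4, 19.0, 16.6, 14.2 and 15.0 CPM in the shCtrl lines and at 9.54, 10.5 and 12.7 CPM in the shTrp53 lines. The groups were separate, with shCtrl lines 382 and 383 nearest the shTrp53 lines. The log2 fold change was -0.66 (SE 0.19, adjusted p = 0.0358, edgeR).

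Slc39a10, a plasma membrane zinc importer, was at 44.7, 45.8, 52.1, 27.6 and 27.6 CPM against 20.3, 28.9 and 18.7 CPM. The groups overlapped, because shCtrl lines 382 and 383 were as low as line 386. Its log2 fold change was -0.80 (SE 0.25, adjusted p = 0.0434, edgeR). Slc39a14, an importer of zinc, iron and manganese, was at 11.6, 16.1, 19.6, 24.6 and 19.0 CPM against 7.67, 12.4 and 10.0 CPM, and overlapped through line 376. Its log2 fold change was -0.85 (SE 0.26, adjusted p = 0.0376, edgeR).

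All 3 zinc calls were lost without line 377, 378, 384 or 386, those of Slc30a1 and Slc39a10 also without 376, that of Slc39a14 also without 382, and those of both importers without 387, with highest adjusted p-values of 0.131 for Slc30a1, 0.142 for Slc39a10 and 0.136 for Slc39a14 (edgeR). With the line term Slc39a14 kept its call (log2 fold change -1.11, adjusted p = 0.0324, edgeR), and Slc30a1 (adjusted p = 0.239) and Slc39a10 (adjusted p = 0.388) did not. The exporters of the early secretory pathway, Slc30a5 and Slc30a6, were the most abundant exporters at 28.6 and 28.8 CPM per kb. Slc30a6 did not overlap between the groups and missed the threshold (log2 fold change -0.42, SE 0.15, adjusted p = 0.0597, edgeR), and Slc30a5 had a log2 fold change of 0.09 (SE 0.13, adjusted p = 0.653, edgeR). The importers of the secretory pathway membranes Slc39a7 (89.9 CPM per kb, log2 fold change 0.13, adjusted p = 0.542, edgeR) and Slc39a13 (16.8 CPM per kb, log2 fold change 0.14, adjusted p = 0.526, edgeR) did not pass either.

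Metallothioneins, which bind zinc and are induced by it, did not pass the test: Mt1 had a log2 fold change of -0.28 (adjusted p = 0.623, edgeR) and Mt2 of -0.31 (adjusted p = 0.337, edgeR). The promoter of Slc30a1 is shown because the gene is the zinc exporter that fell and, like the metallothionein genes, is known to respond to zinc through metal response elements. The window (RefSeq start, GRCm38.p6, chr1:191906531-191906780, plus strand) holds 1 match to the core letters TGCACNC or TGCGCNC on the opposite strand, in capitals, 43 bases before the start.
Slc30a1: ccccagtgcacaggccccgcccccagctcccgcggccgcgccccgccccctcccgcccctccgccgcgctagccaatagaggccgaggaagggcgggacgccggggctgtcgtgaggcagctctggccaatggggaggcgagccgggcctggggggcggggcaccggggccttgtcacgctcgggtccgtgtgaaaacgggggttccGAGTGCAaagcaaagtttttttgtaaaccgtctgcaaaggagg
Such a core was present in 47 of the 120 members with a listed start (39.2%) and in 34.2% of table genes, so its presence is common at windows of this length.

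**Figure D2:**
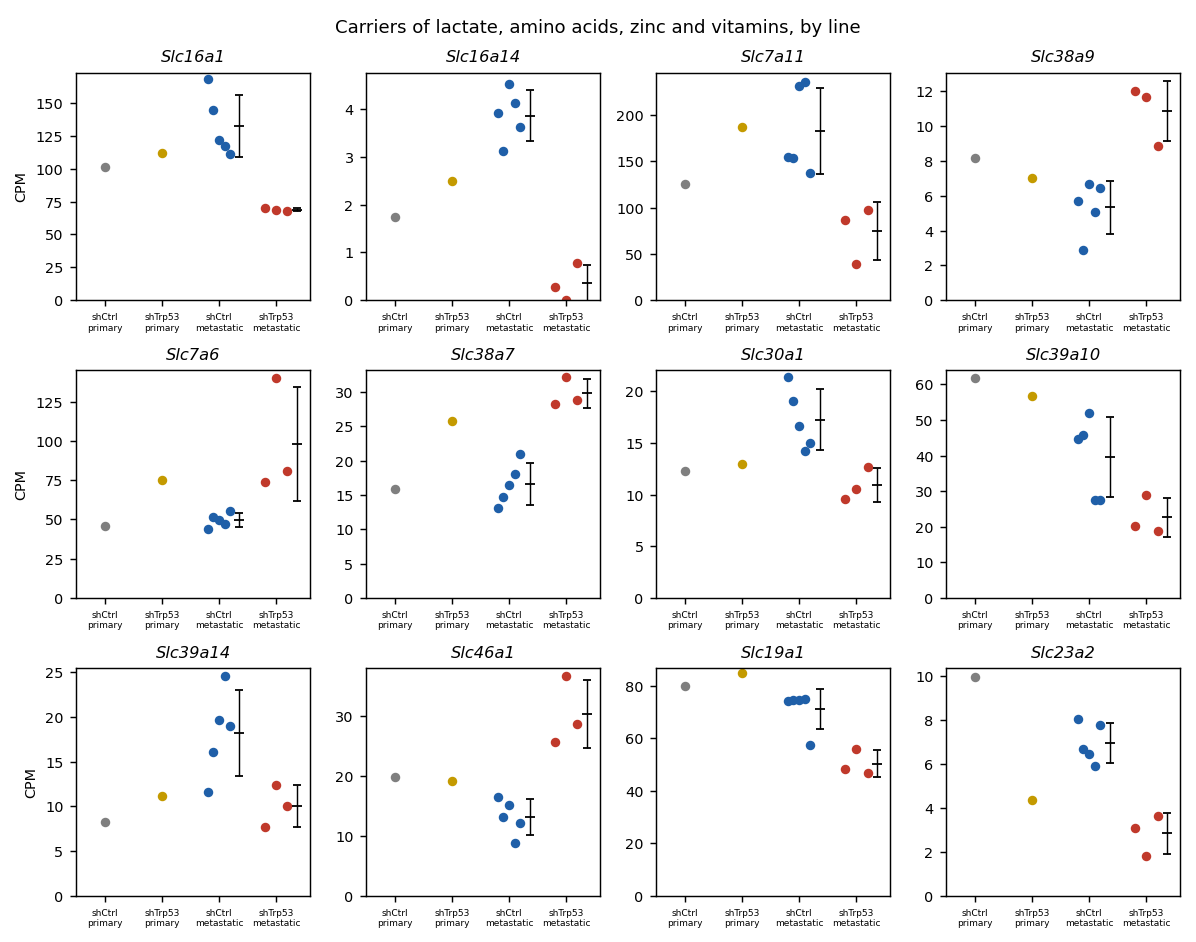
CPM (y axis) of 12 called carriers of lactate, amino acids, zinc and vitamins in each line (points), by group (x axis), with the mean and SD of each metastatic group as bars. Slc16a1 lies between 67.7 and 70.3 CPM in the 3 shTrp53 metastatic lines and at 111 CPM or more in the shCtrl metastatic lines, whereas Slc39a10 and Slc39a14 overlap between the groups.

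Of 40 mitochondrial carriers of the SLC25 family, 6 fell and 3 rose (22.5%, against 21.7% of all genes tested), and the median was 0.09. Those that fell include the 3 most abundant per kilobase, Slc25a5, Slc25a4 and Slc25a3, which supply phosphate and ADP for ATP synthesis. Slc25a5, the ADP/ATP carrier of dividing cells, was at 2001, 1539, 1603, 1471 and 1250 CPM in the shCtrl lines and at 805, 1101 and 964 CPM in the shTrp53 lines. The groups did not overlap, and shCtrl line 383 was nearest to the shTrp53 lines. Its mean was 1573 ± 274 CPM (SD, n = 5) against 957 ± 148 CPM (SD, n = 3), a log2 fold change of -0.71 (SE 0.17, adjusted p = 0.0160, edgeR).

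Slc25a4, the ADP/ATP carrier of muscle and heart, was at 708, 713, 682, 581 and 545 CPM against 389, 425 and 378 CPM. All shTrp53 metastatic lines were below all shCtrl metastatic lines, and the log2 fold change was -0.70 (SE 0.13, adjusted p = 0.00678, edgeR). The sequences of Slc25a4 and Slc25a5 are closely related, and the treatment of reads that match both was not given in the sources used.

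Slc25a3, which imports the phosphate used for ATP synthesis, was at 698, 663, 523, 472 and 427 CPM against 376, 318 and 358 CPM. The values were separate, and the log2 fold change was -0.66 (SE 0.18, adjusted p = 0.0240, edgeR). Slc25a11, the oxoglutarate/malate carrier of the malate-aspartate shuttle, was at 92.2, 85.9, 84.1, 58.2 and 48.4 CPM against 37.2, 36.2 and 43.8 CPM. Lines 382 and 383 stood between lines 376 to 378 and the shTrp53 lines, and the log2 fold change was -0.91 (SE 0.22, adjusted p = 0.0158, edgeR).

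Slc25a24, the calcium-dependent carrier of ATP-magnesium and phosphate, was at 157, 153, 141, 125 and 150 CPM against 51.4, 91.4 and 71.5 CPM. No shTrp53 metastatic line reached the lowest shCtrl metastatic line, and the log2 fold change was -1.02 (SE 0.18, adjusted p = 0.00510, edgeR). The primary pair stood in the same order, 136 CPM in the shCtrl line and 74.6 CPM in the shTrp53 line (log2 ratio -0.86, 95% counting interval -0.98 to -0.75).

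Slc25a21, a carrier of oxoadipate and related acids, was low throughout, at 6.37, 2.00, 3.57, 2.53 and 2.07 CPM against 0.932, 0.325 and 0.499 CPM. The groups were separate, and the log2 fold change was -2.50 (SE 0.53, adjusted p = 0.0110, edgeR). Exons of Slc25a21 overlap those of Pax9 on the opposite strand in the annotation, and Pax9 itself had a log2 fold change of 0.55 (adjusted p = 0.0658, edgeR).

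The mitochondrial carrier with the largest rise was Slc25a43, whose substrate is not established. It was at 3.57, 4.69, 4.17, 4.80 and 3.78 CPM in the shCtrl lines and at 10.5, 27.9 and 16.8 CPM in the shTrp53 lines. Each shTrp53 metastatic line was above every shCtrl metastatic line, and the shCtrl lines were tightly grouped. The log2 fold change was 2.14 (SE 0.28, adjusted p = 0.00159, edgeR), the highest adjusted p without any single line was 0.00655, and the primary pair gave 2.27 and 6.38 CPM, a log2 ratio of 1.44 (95% counting interval 0.90 to 2.11).

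Slc25a44, a carrier of branched-chain amino acids, rose by less, with means of 11.9 ± 1.64 and 19.2 ± 5.55 CPM (SD, n = 5 and 3), with line 387 (13.3 CPM) inside the shCtrl range (log2 fold change 0.69, SE 0.21, adjusted p = 0.0399, edgeR).

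Among the mitochondrial carriers, Slc25a4, Slc25a24, Slc25a21 and Slc25a43 kept their calls without any single line. Slc25a5 lost its call without line 384 (adjusted p = 0.0734, edgeR), Slc25a11 without 384 or 386 (highest adjusted p = 0.0652), Slc25a3 without 377, 384, 386 or 387 (highest adjusted p = 0.0947), and Slc25a44 when any line other than 383 or 387 was left out (highest adjusted p = 0.184). With the line term Slc25a4 (log2 fold change -0.50, adjusted p = 0.0302), Slc25a24 (-0.94, adjusted p = 0.0222) and Slc25a43 (2.11, adjusted p = 0.0138) stayed called, and Slc25a5 (-0.50, adjusted p = 0.0895), Slc25a3 (-0.35, adjusted p = 0.168), Slc25a11 (-0.44, adjusted p = 0.0870), Slc25a21 (-1.97, adjusted p = 0.0610) and Slc25a44 (0.60, adjusted p = 0.182) did not (edgeR).

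None of 13 other genes of mitochondrial membrane transport passed the test, among them the pyruvate carrier subunits Mpc1 (log2 fold change 0.20, adjusted p = 0.209, edgeR) and Mpc2 (log2 fold change 0.03, adjusted p = 0.887, edgeR). Of all genes tested, 21.7% passed.

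**Figure D3:**
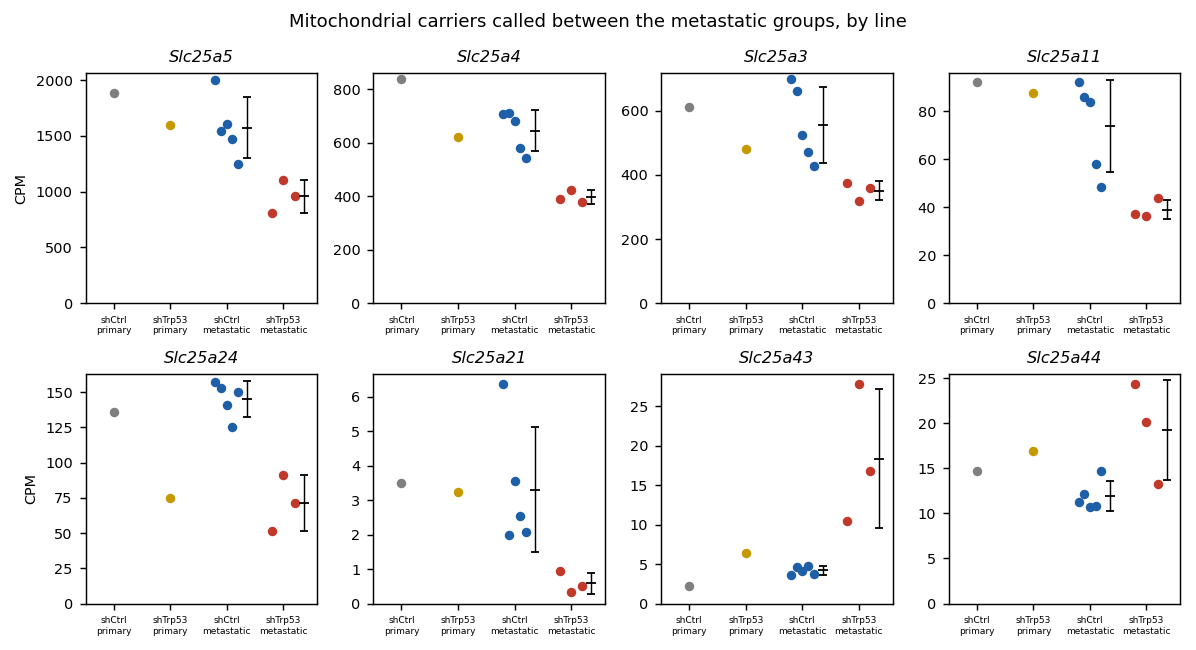
CPM (y axis) of 8 called mitochondrial carriers in each line (points), by group (x axis), with the mean and SD of each metastatic group as bars. Slc25a43 is at 10.5 CPM or more in the shTrp53 metastatic lines and at 4.80 CPM or less in the shCtrl metastatic lines, and the ADP/ATP carriers Slc25a5 and Slc25a4 are lower in the shTrp53 metastatic lines.

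The vitamin carriers split by gene, with 1 of 9 rising and 2 falling (33.3%, against 21.7% of all genes tested). Folate enters cells by a proton-coupled carrier, Slc46a1, and by the reduced folate carrier, Slc19a1, and these moved in opposite directions. Slc46a1 was at 16.4, 13.1, 15.2, 8.84 and 12.1 CPM in the shCtrl lines and at 25.7, 36.6 and 28.7 CPM in the shTrp53 lines, without overlap. It rose, with a log2 fold change of 1.21 (SE 0.21, adjusted p = 0.00465, edgeR), and the call held without any single line and with the line term (log2 fold change 1.54, adjusted p = 0.00631, edgeR). Slc19a1 was at 74.4, 74.5, 74.5, 74.9 and 57.3 CPM against 48.4, 56.1 and 46.6 CPM, with shCtrl line 383 just above the shTrp53 lines. It fell, with a log2 fold change of -0.49 (SE 0.14, adjusted p = 0.0280, edgeR), and the call was lost without line 377, 378, 382, 384 or 387 and with the line term (adjusted p = 0.133). In the primary pair Slc46a1 was at 19.8 and 19.2 CPM and Slc19a1 at 79.8 and 84.8 CPM.

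Slc23a2, a sodium-coupled importer of vitamin C, was at 8.05, 6.69, 6.47, 5.89 and 7.78 CPM against 3.08, 1.82 and 3.61 CPM. The groups did not overlap, and the log2 fold change was -1.29 (SE 0.27, adjusted p = 0.0103, edgeR). Its call held without any single line and with the line term (adjusted p = 0.0433), and the primary lines had 9.97 CPM (shCtrl) and 4.36 CPM (shTrp53; log2 ratio -1.17, 95% counting interval -1.67 to -0.74).

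The copper carriers also diverged. The copper importer Slc31a1 was at 120, 122, 127, 100 and 111 CPM against 80.2, 79.3 and 77.0 CPM, without overlap, and fell, with a log2 fold change of -0.55 (SE 0.12, adjusted p = 0.0102, edgeR). Slc31a2, a related protein of internal membranes, was at 8.96, 8.68, 6.62, 7.66 and 11.2 CPM against 15.1, 18.1 and 11.8 CPM, and rose, with a log2 fold change of 0.80 (SE 0.22, adjusted p = 0.0267, edgeR). The primary pair stood in the same order for both, with log2 ratios of -0.51 (95% counting interval -0.63 to -0.39) for Slc31a1 and 0.51 (0.20 to 0.84) for Slc31a2. Slc31a2 lost its call without line 377, 378, 384 or 386 (highest adjusted p = 0.108), and neither passed with the line term (adjusted p = 0.0502 and 0.149, edgeR).

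Of 19 carriers of sodium, protons, chloride, bicarbonate and related ions, 3 fell and none rose, with a median of -0.37. That was 15.8% called, against 21.7% of all genes tested. Slc26a2, a sulfate carrier, fell from 15.2 ± 3.15 to 7.80 ± 0.458 CPM (SD, n = 5 and 3), with no overlap (log2 fold change -0.96, SE 0.21, adjusted p = 0.0112, edgeR). Slc9a8, a sodium/proton exchanger of the Golgi, fell from 13.6 ± 1.09 to 7.33 ± 1.62 CPM (SD, n = 5 and 3), also without overlap (log2 fold change -0.88, SE 0.20, adjusted p = 0.0130, edgeR), and its call was lost without line 384 (adjusted p = 0.0545). Slc24a5, a sodium/calcium exchanger known from melanosomes, fell from 83.5 ± 20.9 to 52.8 ± 6.18 CPM (SD, n = 5 and 3; log2 fold change -0.66, SE 0.19, adjusted p = 0.0349, edgeR) and lost its call without line 377, 378, 382, 384, 386 or 387 (highest adjusted p = 0.130). Exons of Slc24a5 overlap those of Myef2 on the opposite strand, and Myef2 had a log2 fold change of -0.66 as well (adjusted p = 0.0326, edgeR). No source used here gives the strand setting of the counting, so reads of this pair cannot be told apart. None of the 3 ion carriers passed with the line term (adjusted p = 0.0737 for Slc26a2, 0.0608 for Slc9a8 and 0.169 for Slc24a5, edgeR).

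Single members of other classes rose. Slc27a1, a fatty acid transport protein, was at 43.1, 52.5, 75.5, 89.2 and 55.5 CPM against 108, 141 and 116 CPM, without overlap (log2 fold change 0.95, SE 0.22, adjusted p = 0.0139, edgeR), and lost its call without line 386 (adjusted p = 0.0560). The primary lines had 48.7 CPM (shCtrl) and 99.6 CPM (shTrp53; log2 ratio 1.03, 95% counting interval 0.90 to 1.16). Slc35a5, a nucleotide sugar carrier family member, rose from 9.19 ± 2.24 to 15.9 ± 1.16 CPM (SD, n = 5 and 3; log2 fold change 0.80, SE 0.21, adjusted p = 0.0248, edgeR) and kept its call with the line term (adjusted p = 0.0395). Slc5a3, the sodium-coupled importer of myo-inositol, rose from 149 ± 40.2 to 246 ± 50.1 CPM (SD, n = 5 and 3; log2 fold change 0.73, SE 0.23, adjusted p = 0.0441, edgeR). It shares exons with Mrps6 on the same strand, which had a log2 fold change of 0.18 (adjusted p = 0.499, edgeR). Slc10a7, linked to calcium handling and the Golgi, rose from 15.5 ± 1.06 to 22.2 ± 1.67 CPM (SD, n = 5 and 3; log2 fold change 0.52, SE 0.14, adjusted p = 0.0262, edgeR). The call was lost without line 384, 386 or 387 for Slc35a5 (highest adjusted p = 0.0910, edgeR), without 377, 378, 384, 386 or 387 for Slc5a3 (0.164) and without 377, 384 or 387 for Slc10a7 (0.0994). With the line term Slc27a1 (adjusted p = 0.0986), Slc5a3 (adjusted p = 0.270) and Slc10a7 (adjusted p = 0.105) lost their calls (edgeR).

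Position on the chromosomes moved with part of these calls. On chromosome 8 the 663 genes tested had a median log2 fold change 0.31 above that of all genes, and on chromosome 13 the 473 genes tested 0.32 above. Of the 12 members that rose, 4 lie on chromosome 8 (Slc7a6, Slc38a7, Slc27a1 and Slc10a7) and 1 on chromosome 13 (Slc38a9), which makes 5 in all and includes every amino acid carrier that rose. Slc25a4 also lies on chromosome 8 and fell. The 571 genes tested on chromosome 10 had a median of -0.22 relative to all genes, and Slc25a3 and Slc19a1, which fell, lie there. The part of the chromosome medians in these changes was not tested.

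The 2 primary lines allow a description without a test. Of the 133 members with at least 5 CPM in 1 of the pair, 13 were at least 2-fold higher with shTrp53 and 2 at least 2-fold lower, against 4.34% and 0.648% of 9873 genes (4.98% in both directions together), with a median log2 ratio of 0.16 against -0.04 over all genes. Amino acid carriers had a median of 0.56 (3 of 17 at least 2-fold higher), hexose carriers of 0.34 (2 of 6) and mitochondrial carriers of 0.08 (1 of 34 higher and 1 lower). The largest ratio was that of Slc16a11, a monocarboxylate carrier, at 1.29 and 10.1 CPM (log2 ratio 2.83, 95% counting interval 2.27 to 3.72). Slc16a11 averaged 0.654 CPM over the metastatic lines. It reached the member level, and the 5 CPM asked for here, only through the shTrp53 primary line, so its rank rests on that line. The neutral amino acid carrier Slc1a4 was at 8.03 and 25.5 CPM (log2 ratio 1.65, 1.36 to 1.98), and the urea channel Slc14a1 at 4.40 and 14.1 CPM (log2 ratio 1.64, 1.26 to 2.10).

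The sugar carrier Slc5a10 was at 3.24 and 9.61 CPM (log2 ratio 1.53, 1.08 to 2.08), and its exons overlap those of Fam83g on the opposite strand. Slc4a11, a proton and ammonia carrier, was at 13.4 and 38.0 CPM (log2 ratio 1.49, 1.26 to 1.74). Besides Slc23a2 and Slc25a24, given above, the largest ratios the other way were those of Slc25a40, a relative of the mitochondrial glutathione carrier, at 20.0 and 9.13 CPM (log2 ratio -1.12, -1.46 to -0.82), and Slc18a2, the vesicular monoamine carrier, at 130 and 81.1 CPM (log2 ratio -0.68, -0.80 to -0.58). Slc22a21, a carnitine carrier, was at 8.03 and 5.09 CPM (log2 ratio -0.64, -1.12 to -0.21).

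Of the 30 members called in the metastatic lines, 20 had a primary log2 ratio of the same sign, 9 of the 12 that rose and 11 of the 18 that fell. Over all called genes the shares were 62.4% of those that rose and 71.6% of those that fell. Of all genes tested, called or not, 48.0% had a positive primary log2 ratio. The members leaned positive in the primary pair whether called or not (median 0.16), which raises the agreement of members that rose. A difference in the knockdown effect between metastatic and primary lines was fitted as an interaction of 4 groups in edgeR. Its log2 value was -1.09 for Slc16a1 and 1.25 for Slc46a1. Each primary group was 1 line, so the fit holds no spread among primary lines. It therefore cannot decide whether the knockdown effect differs between primary and metastatic lines.

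Site was compared between the 8 metastatic lines and the 2 primary lines, with the knockdown as a covariate. Neither hairpin had a repeat primary line, so the site p-values rest mainly on the spread among metastatic lines. These p-values do not measure the spread among primary lines. The metastatic lines were also taken from mice at week 8, expanded in culture and sorted by YFP fluorescence. The comparison does not separate site from this handling. Of 159 members, 10 were higher and 16 lower in the metastatic lines, which is 16.4% against 14.8% of all 12603 genes (7.14% higher and 7.65% lower). The median log2 fold change of the members was -0.07, against -0.03 over all genes, and 35 members (22.0%) did not overlap between the sites, against 21.9% of all genes. The comparison rests on the shTrp53 primary line: without it 0 members and 121 of 12728 genes were called by edgeR, and without the shCtrl primary line 17 members were called, all of them lower. Every site call of a solute carrier gene was lost without the shTrp53 primary line.

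Amino acid carriers held 6 of the 26 site calls, 3 higher and 3 lower of 22 (27.3%, against 14.8% of all genes tested). Slc7a11 was not among them. Slc3a2 was at 875 and 980 CPM in the shCtrl and shTrp53 primary lines, and the metastatic lines had a lowest value of 1009, a median of 2044 and a highest of 2227 CPM. All metastatic lines lay above both primary lines, with shCtrl line 376 the nearest. The log2 fold change, metastatic over primary, was 1.00 (SE 0.26, adjusted p = 0.0281, edgeR). Slc38a2 was at 416 and 500 CPM in the primary lines, and at 565, 691 and 783 CPM (lowest, median and highest) in the metastatic lines. The groups were separate, with a log2 fold change of 0.61 (SE 0.15, adjusted p = 0.0239, edgeR).

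The glycine carrier Slc6a9 was at 5.57 and 9.69 CPM in the primary lines, and at 11.0, 25.1 and 34.8 CPM (lowest, median and highest) in the metastatic lines. Line 376 was again the lowest metastatic line, and the log2 fold change was 1.69 (SE 0.41, adjusted p = 0.0217, edgeR). The light chain Slc7a5 (log2 fold change 0.85, SE 0.29, adjusted p = 0.0705, edgeR) and Slc1a5 (log2 fold change 0.68, SE 0.27, adjusted p = 0.102, edgeR) missed the threshold. Without line 376 the adjusted p of Slc7a5 was 0.00761 (edgeR) and 39 members were called. The share of all genes called was then 21.4%, against 14.8% in the main test.

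Genes that cells use and induce when amino acids run short stood beside these carriers. Of the 20 genes of amino acid use and stress, a list chosen with earlier results of these data known, 10 were higher in the metastatic lines and 2 lower. Over all genes tested, 7.14% were higher and 7.65% lower. The median log2 fold change was 0.50 for the 20 genes of amino acid use and the stress response, against -0.03 over all genes. Atf4, the transcription factor of this response, was at 128 and 118 CPM in the primary lines, at 234, 301, 347, 434 and 446 CPM in shCtrl metastatic lines 376 to 383 and at 323, 315 and 365 CPM in the shTrp53 metastatic lines. All metastatic lines were above the primary lines, and the log2 fold change was 1.48 (SE 0.23, adjusted p = 0.00344, edgeR). Its target Trib3 was at 20.8 and 16.2 CPM in the primary lines and at 48.3 to 324 CPM in the metastatic lines (log2 fold change 3.41, SE 0.59, adjusted p = 0.00592, edgeR).

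Chac1, which degrades glutathione, was at 13.1 and 15.3 CPM in the primary lines and ran from 20.9 to 107 CPM in the metastatic lines (log2 fold change 2.44, SE 0.48, adjusted p = 0.0104, edgeR). Asparagine synthetase, Asns, was at 528 and 434 CPM in the primary lines and ran from 794 to 1567 CPM in the metastatic lines (log2 fold change 1.31, SE 0.24, adjusted p = 0.00733, edgeR). Gclm, the modifier subunit of the enzyme that begins glutathione synthesis, was lower, with primary values of 459 and 777 CPM and metastatic values of 76.2 to 196 CPM (edgeR log2 fold change -2.18, SE 0.29, adjusted p = 0.00183). Like the carriers, Atf4, Trib3, Chac1, Asns and Gclm lost their site calls without the shTrp53 primary line.

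**Figure D4:**
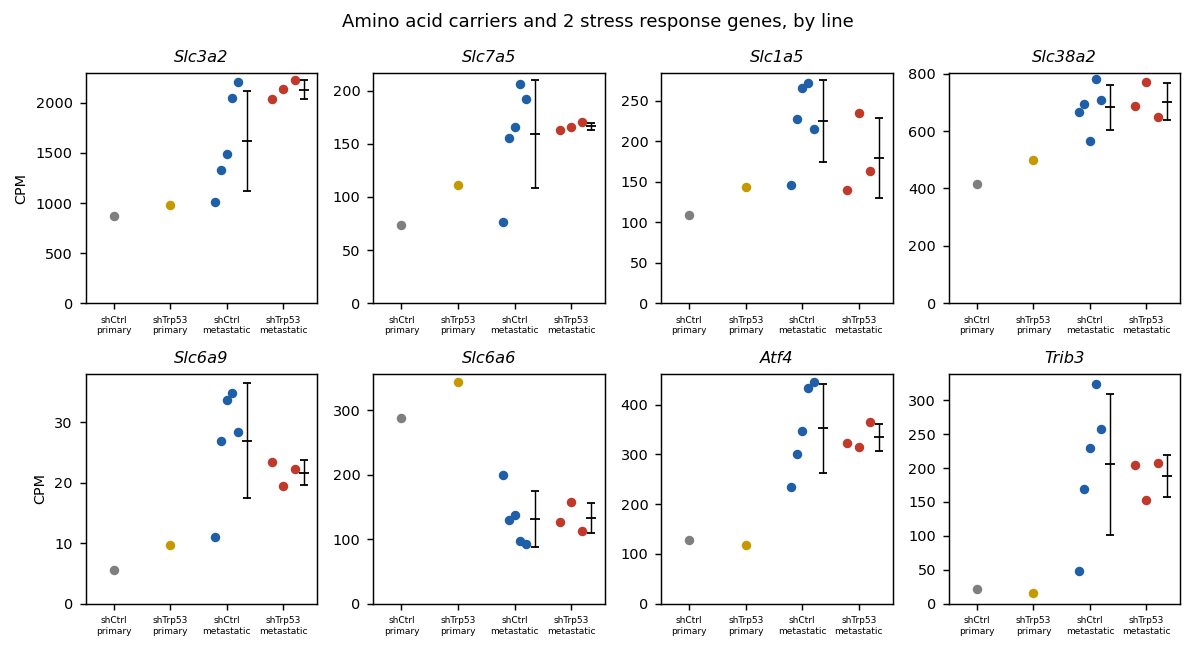
CPM (y axis) of 6 amino acid carriers and 2 stress response genes in each line (points), by group (x axis), with the mean and SD of each metastatic group as bars. Slc3a2, Slc38a2, Slc6a9, Atf4 and Trib3 are above both primary lines in every metastatic line, Slc6a6 is below both, and shCtrl line 376 is the metastatic line nearest the primary lines for Slc3a2, Slc7a5, Slc6a9 and Trib3.

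The amino acid carriers that were lower in the metastatic lines were Slc1a3, Slc43a2 and Slc6a6. Slc1a3, a glutamate and aspartate carrier, was at 12.5 and 15.0 CPM in the primary lines, and at 0.505, 2.52 and 6.18 CPM (lowest, median and highest) in the metastatic lines (log2 fold change -2.35, SE 0.45, adjusted p = 0.00880, edgeR). Slc43a2, which lets leucine and other large neutral amino acids leave cells, was at 6.02 and 6.38 CPM against 0.666, 1.51 and 2.98 CPM (log2 fold change -2.21, SE 0.45, adjusted p = 0.0110, edgeR). Slc6a6, the taurine carrier, was at 288 and 344 CPM against 92.4, 128 and 200 CPM (log2 fold change -1.25, SE 0.23, adjusted p = 0.00798, edgeR), and it is named because it completes the 6. All 3 were lower in each metastatic line than in both primary lines.

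The largest fall between sites among members was that of Slc14a1, the urea channel, at 4.40 and 14.1 CPM in the primary lines and 0.174, 0.437 and 2.54 CPM (lowest, median and highest) in the metastatic lines (log2 fold change -3.28, SE 0.56, adjusted p = 0.00518, edgeR). Slc14a1 averaged 0.785 CPM over the metastatic lines, so it reached the member level of 1 CPM only through the primary lines. Its rank among members therefore rests on the lines that made it a member. The monocarboxylate carrier Slc16a13 was at 40.7 and 64.5 CPM against 4.16, 8.50 and 20.8 CPM (log2 fold change -2.69, SE 0.42, adjusted p = 0.00344, edgeR). Slc16a1, by contrast, had no site call. The nucleoside carrier Slc29a1 was at 260 and 214 CPM against 16.9, 65.9 and 134 CPM, with line 386 the lowest (log2 fold change -1.91, SE 0.40, adjusted p = 0.0133, edgeR).

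The chloride/bicarbonate exchanger Slc4a2 was at 8.35 and 13.2 CPM against 2.51, 3.18 and 7.35 CPM (log2 fold change -1.64, SE 0.37, adjusted p = 0.0161, edgeR). None of these 4 overlapped between the sites, and shCtrl line 376, at 7.35 CPM, was the metastatic line nearest the primary lines for Slc4a2. Exons of Slc4a2 overlap those of Fastk on the opposite strand. Slc26a11, an anion carrier of the lysosome, was higher, at 3.69 and 5.17 CPM against 6.65, 9.76 and 13.6 CPM (log2 fold change 1.28, SE 0.29, adjusted p = 0.0172, edgeR).

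Mitochondrial carriers held 7 site calls of 40, 4 higher and 3 lower (17.5%, against 14.8% of all genes tested), with a median of -0.05. Slc25a25, a calcium-dependent relative of Slc25a24, was at 5.31 and 10.3 CPM in the primary lines and 10.3, 17.9 and 23.6 CPM in the metastatic lines (log2 fold change 1.26, SE 0.30, adjusted p = 0.0211, edgeR), with line 376 at the level of the shTrp53 primary line. Slc25a48, a choline carrier of the inner membrane, was at 19.9 and 21.5 CPM against 26.0, 43.7 and 63.4 CPM (log2 fold change 1.13, SE 0.29, adjusted p = 0.0257, edgeR). Slc25a43, at 2.27 and 6.38 CPM against 3.57, 4.74 and 27.9 CPM, overlapped between the sites, and its site log2 fold change was 1.20 (SE 0.36, adjusted p = 0.0428, edgeR).

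Slc25a4, at 837 and 623 CPM against 378, 563 and 713 CPM, overlapped as well and was lower in the metastatic lines (log2 fold change -0.51, adjusted p = 0.0341, edgeR). No hexose carrier of 8 was called between sites, where 14.8% of all genes tested were. The site log2 fold change of Slc2a1 was -0.06 (adjusted p = 0.818, edgeR).

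Among zinc carriers 1 of 16 was higher and 2 were lower between sites (18.8%, against 14.8% of all genes tested). Slc39a7, which releases zinc from the endoplasmic reticulum, was at 140 and 165 CPM in the primary lines and 188, 225 and 282 CPM in the metastatic lines (log2 fold change 0.60, SE 0.16, adjusted p = 0.0328, edgeR). Slc30a5, which loads zinc into that pathway, was at 122 and 144 CPM against 65.9, 80.6 and 93.5 CPM (log2 fold change -0.70, SE 0.14, adjusted p = 0.00976, edgeR). The importer Slc39a10 was at 61.7 and 56.8 CPM against 18.7, 28.3 and 52.1 CPM (log2 fold change -0.98, SE 0.26, adjusted p = 0.0294, edgeR). None of the 3 overlapped between the sites.

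Of the zinc-handling genes outside the family, Tmem163, a zinc efflux protein, was at 4.79 and 8.97 CPM in the primary lines and ran from 0 to 0.645 CPM in the metastatic lines. It was called lower and kept its call without any single line (highest adjusted p = 0.0351, edgeR). Slc39a10 was 1 of 5 members called in both comparisons, with Slc24a5, Slc25a4, Slc25a43 and Slc26a2. The shTrp53 metastatic lines enter both comparisons.

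**Figure D5:**
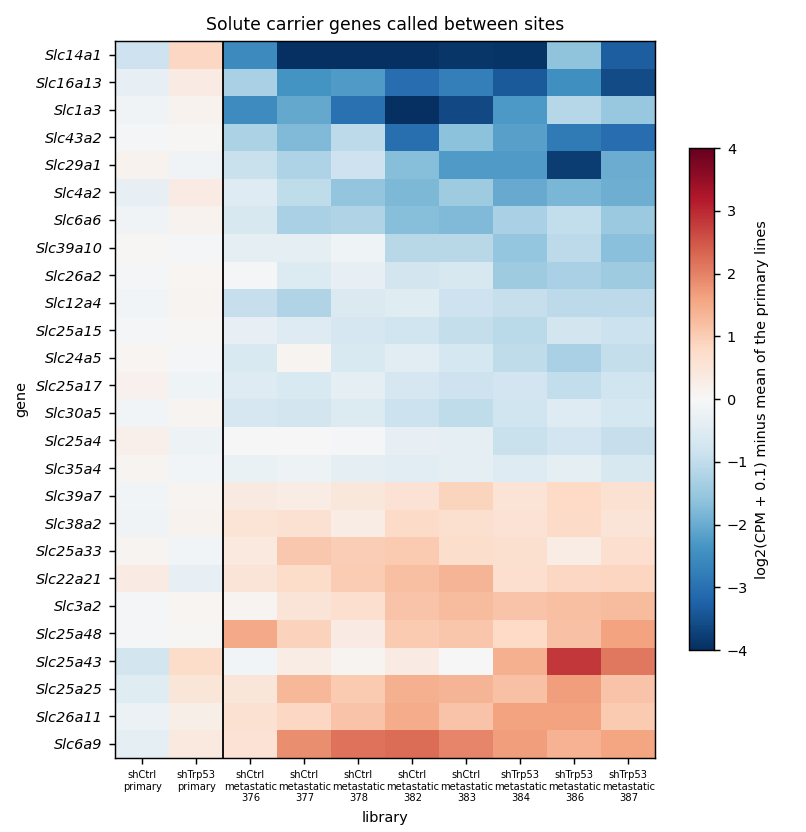
Difference in log2(CPM + 0.1) from the mean of the primary lines (colour, ending at -4 and 4) for the 26 solute carrier genes called between sites (rows) in each of the 10 libraries (columns). The 16 genes at the top are lower in most metastatic lines and the 10 at the bottom higher, with Slc25a43 high mainly in the 3 shTrp53 metastatic lines.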

How the data were processed

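RNA was read in 10 cell lines with SMART-Seq v4 cDNA and ThruPLEX libraries, per the labels' protocols. The authors deposited 1 table of whole-number counts per gene, not normalized, with 1 column per library. STAR 2.5, Cufflinks 2.2.1, DESeq2 and the build mm9 stand in the submitters' processing notes with no role for each (strand setting and gene annotation not given in the sources used here). In 18 of 12824 rows a bare number stood for the gene name. These rows (0.332 to 0.491% of counts) were left out.

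Members were the 159 solute carrier genes with a mean of at least 1 CPM. The members and lists were chosen with earlier results of these data known. For all named genes, counts went into edgeR (version 4.0.16, R 4.3.3), with TMM, filterByExpr, robust glmQLFit and glmQLFTest, and with Benjamini-Hochberg adjustment over all genes and a threshold of 0.05. Standard errors were taken as |log2 fold change| divided by the square root of F. The knockdown was tested in 8 metastatic lines and the site in 10 lines with the knockdown as covariate. The interaction was added after the data were seen. CPM shown are TMM-scaled over 10 libraries. The primary pair, 1 line each, was not tested: it is given as CPM ratios on the log2 scale (2 counts added beforehand) with exact binomial 95% counting intervals, which cover counting error only. No molecular identifiers are named, so reads are not independent molecules.

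Within the hexose, monocarboxylate, amino acid, zinc and mitochondrial lists, up to 8 called members and the 2 highest per kilobase were named. Up to 3 called members of other lists were named, with the 6 largest site changes and 5 largest primary ratios each way and 13 genes always named. 1 called gene is not reported here. The rule's "always named" genes Slc2a3 and Slc16a3 are no members. Exonic lengths and overlaps came from GENCODE M21 (GRCm38) and promoters from RefSeq (GRCm38.p6), of which 120 members had a listed start. Protein sequences were not used here.

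The alternatives tried were leaving out each line, a line term, other sets of lines, DESeq2 1.42.0 and its size factors, upper-quartile scaling, voom in limma 3.58.1, a test against 1.5-fold, non-robust dispersion and other filters on low counts. Both tests were run on simulated data. For the knockdown, with 12120 genes, the 4-fold changes were recovered in 53 of 67 genes, the 2-fold changes in 30 of 67 and the 1.5-fold changes in 4 of 66, with 2 unchanged genes called. For the site, with 12603 genes, these numbers were 56 of 67, 25 of 67 and 4 of 66, with 0 unchanged genes called. Only these genes were changed in the simulation, far fewer than the 2634 (knockdown) and 1864 (site) called in the data. The adjustment is stricter where few genes change, so recovery in the data may be higher.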

Additional observations from a re-analysis of the deposited data

Results flagged for a closer look

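Slc19a1, the reduced folate carrier, stood at 57.3 CPM in shCtrl metastatic line 383, far below the other 4 shCtrl metastatic lines, which lay between 74.4 and 74.9 CPM. The gap took up 0.976 of the group's range.

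Slc14a1, the urea channel, stood at 1.26 CPM in shCtrl metastatic line 376, above the other 4 at 0.174 to 0.444 CPM, and that gap took up 0.751 of the range. A single line was called apart where the gap passed 0.71 of the range of 5 lines, which chance gives in about 1 of 20 groups. Of the 56 named genes read in this way, these 2 were marked.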

How the results depend on the processing

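Of the knockdown calls, 30 in the main test, 3 passed a test against a 1.5-fold change and 13 passed with the line term. Leaving out 1 line gave 14 (without shTrp53 line 384) to 31 (without shCtrl line 383), and 18 without shTrp53 line 386. Over all genes, 2634 were called in the main test, 965 with the line term, 330 against a 1.5-fold change, and 1154 without line 384. DESeq2 called 43 members and voom 39. They called 28.1% and 29.6% of all genes, against 21.7% in the main test.

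Of the site calls, 26 in the main test, 13 passed with voom, 4 against a 1.5-fold change, 17 in shTrp53 lines only, 11 without the knockdown covariate and 0 in shCtrl lines only. Leaving out 1 line gave 0 (without the shTrp53 primary line) to 39 (without line 376), with 17 without the shCtrl primary line and 16 without line 387. Over all genes, 1864 were called in the main test, 736 with voom, 649 without the covariate, 314 against a 1.5-fold change, 80 in shCtrl lines only and 121 without the shTrp53 primary line; DESeq2 called 2816 and 39 members. Without line 376, 2687 of 12550 genes (21.4%) were called. The cause of these changes was not tested.

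Signs turned in uncalled knockdown values. Slc38a2 ran from -0.02 to 0.10 over the left-out lines and was -0.08 with the line term, and Slc7a5 ran from -0.10 to 0.18 and was -0.25. Slc39a13 ran from -0.01 to 0.27 over the left-out lines, and Slc39a7 was -0.07 with the line term. No paired analysis was possible because the groups share no line numbers. The member level of 1 CPM gave 159 genes, against 177 at 0.5 CPM and 146 at 2 CPM. A 2-fold change was often missed in simulated data, so an uncalled gene is not shown to be equal between groups.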
